A study of Mus musculus with 29 samples.

Results

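Small intestinal tumors of mice with Rnaseh2b and p53 deleted in the epithelium were set against cultured organoids with the same double deletion, to part the expression changes that tumors share with cultured epithelium from those seen in tumor tissue alone. The comparison used 14 of the 29 libraries of the series, chosen by their tissue, title and genotype labels, and the 49466 Ensembl genes that were counted in all 14. The groups were 4 tumors from H2B/p53dIEC mice, 4 samples of intestinal tissue from H2B/p53flox/flox mice (called floxed tissue), 3 libraries of H2B/p53dIEC organoids titled H2Bp53DKO (DKO organoids) and 3 libraries of organoids titled LW50_WT (WT organoids). WT organoids also carry the H2B/p53flox/flox genotype, so both control groups hold the floxed alleles, and all animals were of the C57BL/6 strain. H2B stands for Rnaseh2b. The age of the mice in these groups, the Cre driver, the gut segment and the culture medium are not given in the sources used here. The labels do not say that the 3 libraries of an organoid group came from separate mice or cultures, so the spread between them may be technical. An organoid p-value therefore cannot be read as a measure against the spread between mice or cultures. In the fit of all 14 libraries it also rests on a spread estimated over tissue and organoids together. Only the WT organoids carry the LW50 prefix, so the organoid line and the genotype cannot be told apart.

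RNase H2 is the enzyme that removes single ribonucleotides from DNA, and Rnaseh2b encodes one of its subunits. Cells without it keep ribonucleotides in their genome and suffer DNA damage, to which the transcription factor p53 (gene Trp53) responds by switching on genes of cell cycle arrest, repair and cell death. Organoids are cultures of intestinal epithelium that hold stem cells and their progeny but no vessels, stroma, immune cells or luminal bacteria, whereas a tumor sample holds all of these.

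The quantities given for each gene are log2 fold changes with their standard error (SE). The tissue change is tumor minus floxed tissue, the organoid change is DKO organoid minus WT organoid, and the interaction is the tissue change minus the organoid change. All were fitted together in the 14 libraries with edgeR's quasi-likelihood test, with p-values adjusted by Benjamini-Hochberg over the 19727 genes that passed a filter on low counts, and a gene was called at an adjusted p under 0.05. Expression is given in CPM, counts scaled to library size with TMM factors. Values per library are listed in the order 1349, 1323, 1322 and 1319 for tumors, 1315, 1316, 1320 and 1321 for floxed tissue, 1 to 3 for DKO organoids and A to C for WT organoids.

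Total counts were 21884287 to 30290711 in tumors and 26853485 to 41504298 in floxed tissue, except 401365 in floxed tissue 1320. They were 13549741 to 15844236 in DKO organoids and 16803119 to 21386586 in WT organoids. Tissue and organoid files listed 49585 and 52550 gene identifiers, which points to different annotation releases, so tests compare levels within a set, and between sets only their changes. Tissue libraries of a group varied more than organoid libraries, with a median within-group SD of log2 CPM of 0.365 in tissue (0.303 without floxed tissue 1320) and 0.0991 in organoids over the 12880 genes that passed the filter in both sets. The pooled fit uses 1 spread per gene for both sets and therefore called few organoid changes. Over the same genes its median SE was 0.191 in tissue and 0.211 in organoids. Its tissue SEs may thus be too small and its organoid SEs too large. A companion fit with limma voom and a weight for each group is given beside it as "with group weights". As a check of the labels alone, the 15 neutrophil genes summed to 716 to 2930 CPM in tumors and 2.71 to 29.1 CPM in floxed tissue, against 0.1997 to 0.455 CPM in DKO organoids and 0.491 to 0.615 CPM in WT organoids, and 10 of 24 fibroblast and matrix genes were at 0 in every DKO organoid library and 8 in every WT organoid library. Tumor 1349 came from the only mouse whose tissue held reads of Y-linked genes.

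The targeted genes were lower in both double-deleted groups, by more in organoids than in tumors. Rnaseh2b had 5.77, 7.02, 2.97 and 4.204 CPM in tumors, against 16.4, 15.3, 24.4 and 14.7 CPM in floxed tissue. It had 1.99, 1.59 and 0.999 CPM in DKO organoids, against 16.6, 13.6 and 15.2 CPM in WT organoids. Trp53 had 24.1, 33.9, 14.8 and 17.3 CPM in tumors, against 57.4, 44.5, 46.1 and 51.7 CPM in floxed tissue, and 9.21, 10.6 and 10.8 CPM in DKO organoids, against 97.7, 90.02 and 106 CPM in WT organoids. No deleted library overlapped a control library of its set for either gene. The tissue and organoid changes were -1.71 ± 0.27 and -3.30 ± 0.34 for Rnaseh2b (interaction 1.58 ± 0.42, adjusted p = 0.00987) and -1.17 ± 0.21 and -3.26 ± 0.26 for Trp53 (interaction 2.09 ± 0.32, adjusted p = 0.000243). Gene counts do not show which exons the remaining reads came from. In bulk samples, fewer cells of a type and less RNA per cell cannot be told apart. Of the partner subunits, Rnaseh2a had 69.8, 55.7, 84.2 and 42.8 CPM in tumors, against 22.2, 22.2, 13.6 and 19.7 CPM in floxed tissue, and 40.95, 39.8 and 40.5 CPM in DKO organoids, against 39.1, 40.1 and 42.6 CPM in WT organoids. Rnaseh2a rose in tissue (1.61 ± 0.18) and not detectably in organoids (-0.01 ± 0.20, interaction adjusted p = 0.000423), and the interaction of Rnaseh2c was 1.17 ± 0.34 (adjusted p = 0.0159).

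Across all genes, most changes called in tumors were not called in the double-deleted organoids. In tissue 6209 genes rose (31.5% of genes tested) and 5211 fell (26.4%), together 57.9%, against 379 that rose (1.92%) and 305 that fell (1.55%) in organoids, together 3.47%. The interaction was called higher for 3396 genes (17.2%) and lower for 3167 (16.1%), together 33.3%. Of the genes that rose in organoids, 218 rose in tissue as well, which is 57.5% of the organoid list and 3.51% of the tissue list, and 55 fell in tissue (14.5% of the organoid list). Of the genes that fell in organoids, 110 fell in tissue (36.1% of the organoid list and 2.11% of the tissue list) and 98 rose in tissue (32.1%). These shares depend on the fit. With group weights 1526 genes rose in both sets, which is 39.2% of the organoid list and 31.1% of the tissue list, and 1198 fell in both (36.7% of the organoid list and 26.2% of the tissue list). In that fit 576 genes rose in tissue and fell in organoids (17.6% of the organoid list and 11.8% of the tissue list), and 649 did the reverse (16.7% and 14.2%). Over the 12880 genes expressed in both sets the tissue and organoid changes had a Pearson correlation of 0.19 and a Spearman correlation of 0.23. These are descriptions across genes, which are not independent replicates.

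Genes were then sorted by the 3 calls. Shared genes were called the same way in tissue and organoids with no call of the interaction: 145 were higher and 75 lower. A further 73 higher and 35 lower genes went the same way in both but by unequal amounts. Opposite genes were called in both sets in opposite directions: 98 rose in tumors and fell in DKO organoids, and 55 did the reverse. Tissue-only genes were called in tissue and in the interaction but not in organoids, with 3019 higher and 2867 lower. Of these, 2632 and 2512 passed the filter in both sets, while 292 and 285 did not pass it in organoids, so that their missing organoid call measures nothing. Organoid-only genes, by the same rule, numbered 70 higher and 77 lower. For 5109 genes called in 1 set alone the interaction was not called, so these data do not say in which class they belong. With group weights, 3889 genes rose (19.7%) and 3266 fell (16.6%) in organoids, together 36.3%, and the interaction was higher for 3775 (19.1%) and lower for 4267 (21.6%), together 40.8%. It called 48% of genes in tissue. That fit kept 90.5% of the higher and 95.2% of the lower interaction calls, 79.5% of the shared genes, 83% of the opposite genes and 51.9% of the tissue-only genes. Leaving out any of the 6 organoid libraries in the edgeR fit lowered the organoid calls to between 91 and 131 higher and between 79 and 135 lower genes. Leaving out tumor 1322 raised them to 713 and 575, and leaving out tumor 1323 to 644 and 511.

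**Figure D1:**
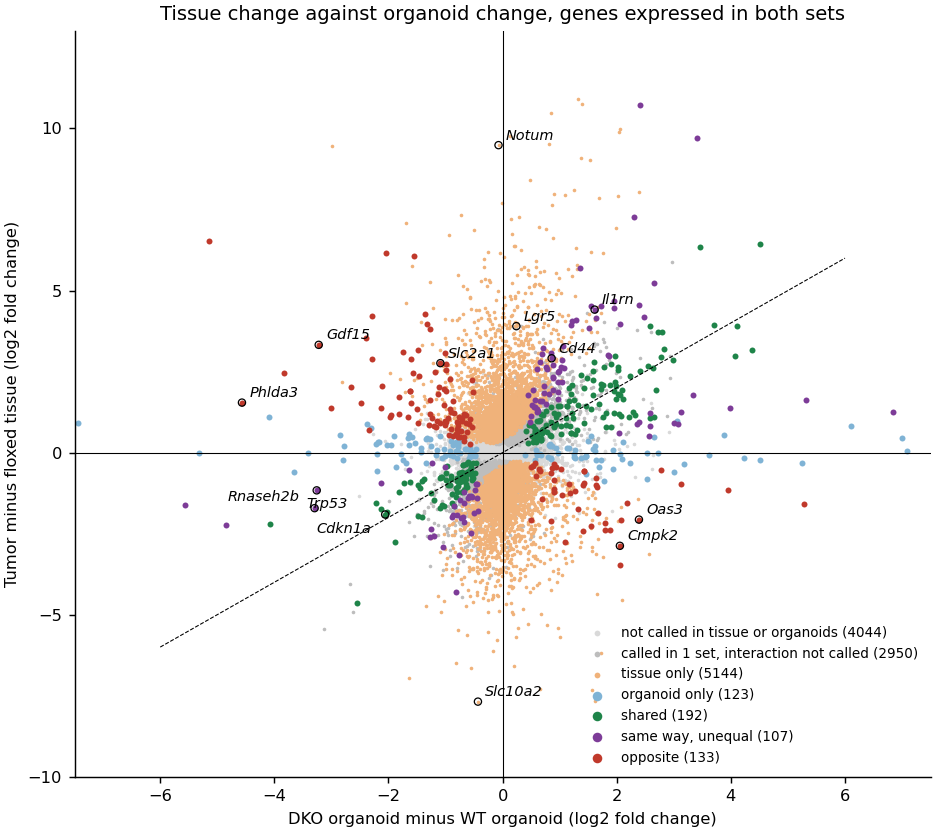
Tissue change (vertical axis, log2) against organoid change (horizontal axis, log2) for genes expressed in both sets, each point a gene coloured by its class, with the dashed line marking equal changes; 12878 of 12880 genes lie within the axes. The cloud is taller than it is wide, and Slc2a1, Phlda3 and Gdf15 lie at the upper left, Cmpk2 and Oas3 at the lower right, and Cdkn1a on the dashed line.

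The p53 targets called in DKO organoids were all lower there in the pooled fit, while those called in tumors went both ways. Of 43 tested members of a list of 44 p53 target genes, 0 rose and 15 fell in organoids, where 1.92% of all genes rose and 1.55% fell. In tissue 12 rose and 12 fell, near the shares of all genes (31.5% and 26.4%), and the interaction was higher for 18 and lower for 3, against 17.2% and 16.1% of all genes. The median organoid change was -0.44, against 0.00 over all genes tested, and the median tissue change was 0.15, against 0.07 over all genes. With group weights 26 members fell and 1 rose in organoids, against 16.6% and 19.7% of all genes. Leaving out 1 library in turn left 9 to 17 members lower in organoids and 14 to 20 higher in the interaction.

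Cdkn1a, which encodes the cell cycle inhibitor p21, fell by nearly the same amount in both sets. It had 189, 162, 77.8 and 102 CPM in tumors, against 470, 555, 515 and 459 CPM in floxed tissue. DKO organoids held 61.3, 67 and 65.05 CPM, against 226, 301 and 278 CPM in WT organoids. The groups did not overlap in either set, the changes were -1.91 ± 0.23 in tissue and -2.06 ± 0.26 in organoids, and the interaction was 0.15 ± 0.33 (adjusted p = 0.841). Ccng1 (cyclin G1) and Polk (a translesion DNA polymerase) were the other shared members, with tissue changes of -1.21 ± 0.16 and -0.74 ± 0.18 and organoid changes of -1.82 ± 0.19 and -1.08 ± 0.20. With group weights Ccng1 fell in both sets by unequal amounts and Polk was no longer placed in a class. The number of shared p53 targets was 6 without tumor 1319 and 2 without DKO organoid 3. Mdm2, which encodes the ubiquitin ligase that degrades p53, was at -0.43 ± 0.14 in tissue (adjusted p = 0.0199) and -0.43 ± 0.16 in organoids (adjusted p = 0.186, and 3.01e-05 with group weights).

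Phlda3, Bax, Gdf15 and Tnfrsf10b went in opposite directions. Phlda3, an inhibitor of AKT signalling, had 0.739, 1.42 and 1.26 CPM in DKO organoids, against 23.97, 29.2 and 28.4 CPM in WT organoids. It had 16.04, 23.9, 24.8 and 16.6 CPM in tumors, against 6.57, 7.58, 18.98 and 4.74 CPM in floxed tissue. The organoid groups lay far apart, while in tissue the shallow floxed library 1320 lay among the tumors and the other floxed libraries below them. The change was 1.54 ± 0.30 in tissue and -4.57 ± 0.37 in organoids, with an interaction of 6.11 ± 0.47 (adjusted p = 1.5e-06). Bax, which permeabilises mitochondria in apoptosis, had 55.2, 55.4, 77.7 and 48.2 CPM in tumors, against 29.4, 31.8, 32.5 and 30.4 CPM in floxed tissue, and 31.2, 28.6 and 29.9 CPM in DKO organoids, against 55.7, 56.4 and 65.5 CPM in WT organoids. Its groups did not overlap in either set, and the interaction was 1.93 ± 0.21 (adjusted p = 1.71e-05). Gdf15, a secreted stress cytokine, had 5.73, 19.2, 22.5 and 1.89 CPM in tumors, against 1.42, 0.929, 2.71 and 1.22 CPM in floxed tissue, and 4.32, 4.73 and 3.26 CPM in DKO organoids, against 35.6, 40.5 and 39.2 CPM in WT organoids. Tumor 1319 lay within the range of the floxed libraries for Gdf15, and its interaction was 6.55 ± 0.94 (adjusted p = 0.000218). Tnfrsf10b, a death receptor, changed by 0.74 ± 0.16 in tissue and -0.91 ± 0.17 in organoids (interaction adjusted p = 0.000137). All 4 were opposite with group weights as well, and the count of opposite p53 targets was 2 or 3 when an organoid library was left out.

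Organoid-only members were Zmat3 (an RNA-binding protein), Eda2r (a TNF receptor family member), Ephx1, Psrc1, Sesn2 and Trp53inp1. Zmat3 had 26.2, 30.2 and 28.8 CPM in DKO organoids, against 87.6, 106 and 93.2 CPM in WT organoids, while tumors held 25.2, 32.5, 25.6 and 34.8 CPM, against 35.5, 32.7, 37.97 and 33.5 CPM in floxed tissue. The organoid groups were separate and the tissue groups overlapped (organoid change -1.75 ± 0.14, tissue change -0.22 ± 0.13, interaction adjusted p = 4.95e-05). Eda2r changed by -5.31 ± 0.66 in organoids and -0.02 ± 0.48 in tissue. Tissue-only members went both ways. Sulf2 (an extracellular sulfatase), Plk2 (a polo-like kinase) and Aen (an apoptotic nuclease) rose in tumors, by 2.57 ± 0.21, 2.16 ± 0.21 and 1.52 ± 0.16, and Sesn1 (a stress-responsive regulator of mTORC1), Perp and Fas (a death receptor) fell, with changes of -2.94 ± 0.25, -1.63 ± 0.24 and -1.54 ± 0.35. Their organoid changes were between -0.44 (Sulf2) and 0.31 (Fas), and the falls of Sulf2 and Aen in organoids were called with group weights. Sesn1 had 30.7, 18.99, 10.5 and 25.5 CPM in tumors, against 146, 184, 138 and 183 CPM in floxed tissue, with no overlap.

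**Figure D2:**
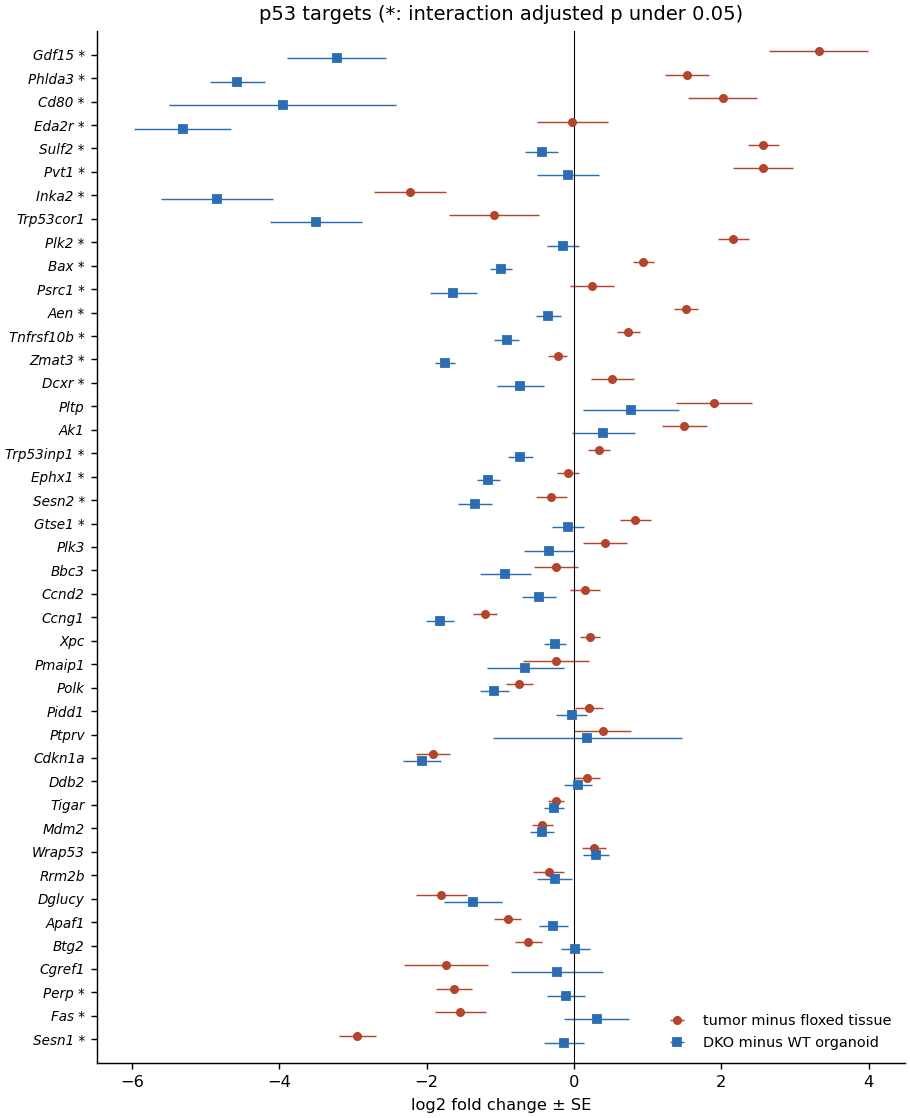
Tissue change (circles) and organoid change (squares) of the 43 p53 targets tested, log2 ± SE, ordered by the interaction, with an asterisk where the interaction was called. Squares lie left of 0 for 36 of 43 genes, while circles lie on both sides, and the pair of Cdkn1a marks coincide.

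Of 18 hypoxia and glycolysis genes, 8 were called in opposite directions in tumors and organoids. These genes are induced when oxygen is low by HIF transcription factors, which also raise glucose uptake and its breakdown to lactate. All 18 were tested and passed the filter in both sets. In tissue 12 rose and 2 fell, against 31.5% and 26.4% of all genes. In organoids 0 rose and 12 fell, against 1.92% and 1.55% of all genes, and the interaction was higher for 16 and lower for 0, against 17.2% and 16.1%. Leaving out an organoid library left 4 to 8 members lower in organoids, with 4 without DKO organoid 3. The median tissue change was 0.79 and the median organoid change -1.05, and all 18 organoid changes lay below 0. With group weights 18 of 18 fell in organoids. Summed over the list, tumors held 5701 to 7737 CPM, against 4244 to 5450 CPM in floxed tissue, and DKO organoids held 5783 to 5980 CPM, against 10470 to 11130 CPM in WT organoids. Tumors were thus above floxed tissue and DKO organoids below WT organoids, with no overlap in either set. Adjacent tissue of the tumor-bearing mice, outside the 14 libraries, held 4758 to 8704 CPM, which overlapped floxed tissue and tumors.

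Of the 8 opposite members, Slc2a1, the glucose transporter GLUT1, had 138, 220, 160 and 112 CPM in tumors, against 22.1, 22.1, 10.8 and 29.02 CPM in floxed tissue. DKO organoids held 91.2, 82.6 and 81.03 CPM, against 181, 180 and 182 CPM in WT organoids. The tissue change was 2.76 ± 0.21, the organoid change -1.09 ± 0.22 and the interaction 3.85 ± 0.31 (adjusted p = 1.93e-06). Bnip3, a mitochondrial protein of mitophagy, had 110, 102, 183 and 80.2 CPM in tumors, against 22.9, 26.7, 21.7 and 19.4 CPM in floxed tissue, and 34.1, 37.8 and 38.2 CPM in DKO organoids, against 97.5, 112 and 93.3 CPM in WT organoids. Egln3, a prolyl hydroxylase that marks HIF for degradation, had 121, 91.7, 226 and 93.7 CPM in tumors, against 63.8, 49.3, 75.9 and 56.7 CPM in floxed tissue, and 128, 137 and 133 CPM in DKO organoids, against 471, 596 and 478 CPM in WT organoids. In each of these genes the groups were separate in both sets, and the interactions of Bnip3 and Egln3 were 3.83 ± 0.32 (adjusted p = 2.42e-06) and 3.11 ± 0.38 (adjusted p = 4.27e-05).

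The vasodilator peptide gene Adm had an interaction of 3.06 ± 0.33 (adjusted p = 1.51e-05), with a tumor library (1349, 12.7 CPM) below the highest floxed library (13.2 CPM). Pgk1 and Aldoa (glycolytic enzymes), Pdk1 (a kinase that holds pyruvate out of the mitochondria) and Ndrg1 completed the opposite members, with tissue changes of 1.08, 0.85, 0.78 and 1.05 and organoid changes of -0.70, -1.01, -0.54 and -1.23. Ankrd37 and Pfkfb3 were organoid-only, with organoid changes of -1.90 ± 0.34 and -1.65 ± 0.37, and Vegfa (the angiogenic growth factor) fell in both sets (-0.33 ± 0.11 in tissue and -1.24 ± 0.13 in organoids), although its fall in tissue was not called with group weights. Pfkp (phosphofructokinase, platelet type) was the shared member, lower in both sets, with changes of -1.95 ± 0.24 in tissue and -1.48 ± 0.27 in organoids, and was no longer shared without tumor 1349 or DKO organoid 2 or 3. The number of opposite members was 3 to 5 when an organoid library was left out, 12 without tumor 1323, and 11 with group weights. The number of higher interaction calls stayed at 16 or 17 whichever library was left out.

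The promoters of these genes are shown as a description. In RefSeq promoter sequences on GRCm38.p6, from 250 bases before to 50 after a start site and on both strands, the core hypoxia response element ACGTG was found in 14 of 25 promoters of 17 members (56%), against 19.6% of 32851 promoters. The promoters of the opposite genes Slc2a1 (chr4:119108495-119108794, plus strand) and Pgk1 (chrX:106186850-106187149, plus strand) are given 5′ to 3′ with each match of ACGTG, on either strand, in capitals. A match is a string of letters, not a measured binding site. The list was made of genes that HIF induces, so its share of matches follows from that choice and does not bear on the changes measured here. Promoters of a gene can also overlap, as those of Aldoa do.
Slc2a1: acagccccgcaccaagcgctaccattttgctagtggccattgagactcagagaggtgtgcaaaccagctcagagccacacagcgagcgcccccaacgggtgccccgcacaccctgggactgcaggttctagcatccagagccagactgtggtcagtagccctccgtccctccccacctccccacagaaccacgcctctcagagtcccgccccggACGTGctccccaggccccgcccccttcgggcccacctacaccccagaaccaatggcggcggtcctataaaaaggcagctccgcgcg
Pgk1: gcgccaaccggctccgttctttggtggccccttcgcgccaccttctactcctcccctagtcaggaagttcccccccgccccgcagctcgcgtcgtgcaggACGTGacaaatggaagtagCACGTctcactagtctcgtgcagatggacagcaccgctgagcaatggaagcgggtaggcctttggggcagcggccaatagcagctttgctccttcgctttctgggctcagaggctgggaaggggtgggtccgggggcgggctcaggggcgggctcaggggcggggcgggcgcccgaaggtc

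The interferon-stimulated genes called in DKO organoids were all higher there, and in tumors members went both ways. These genes encode antiviral proteins and sensors of foreign or misplaced nucleic acid, and are switched on by interferon through STAT and IRF factors. Of 40 members, all tested, 10 rose and 0 fell in organoids, where 1.92% of all genes rose and 1.55% fell (26 and 0 with group weights, where 19.7% and 16.6% of all genes did). In tissue 5 rose and 10 fell, where 31.5% of all genes rose and 26.4% fell, so the number that fell was near the share of all genes. The interaction was higher for 2 and lower for 19, against 17.2% and 16.1% of all genes. The median organoid change was 1.46 and the median tissue change -0.13. Of the 40 organoid changes 39 lay above 0. Summed over the list, DKO organoids held 553 to 564 CPM, against 279 to 378 CPM in WT organoids, without overlap, whereas tumors held 918 to 2151 CPM, against 1311 to 3808 CPM in floxed tissue, with overlap. Leaving out any organoid library left 4 or 5 members higher in organoids, and 16 or 17 lower in the interaction. The number that rose in tissue was between 2 and 7 when a library was left out, and 2 without floxed tissue 1315, 1320 or 1321, tumor 1322 or DKO organoid 2.

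Cmpk2 and Oas3 were opposite, and 1 member was opposite when any organoid library was left out. Cmpk2, a mitochondrial nucleotide kinase, had 15.2, 12.4, 18.3 and 13.3 CPM in tumors, against 101, 123, 94.9 and 110 CPM in floxed tissue. DKO organoids held 8.42, 9.69 and 9.19 CPM, against 1.802, 2.59 and 2.13 CPM in WT organoids. The groups were separate in both sets, and the interaction was -4.93 ± 0.24 (adjusted p = 3.02e-08). Oas3, which makes the 2-5A messenger that activates RNase L, had 11.7, 22.3, 15.8 and 8.99 CPM in tumors, against 26.02, 106, 78.7 and 42.9 CPM in floxed tissue, and 4.66, 5.24 and 4.66 CPM in DKO organoids, against 0.601, 1.01 and 1.15 CPM in WT organoids. The floxed libraries of Oas3 spread widely yet stayed above every tumor (interaction -4.45 ± 0.66, adjusted p = 0.000215).

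Organoid-only members were Xaf1, Rsad2 (viperin), Rtp4, Oas1g, Mx2 and Trim30a, with organoid changes of 3.88, 3.17, 2.52, 1.78, 2.24 and 2.64 and tissue changes between -0.87 (Oas1g) and 0.55 (Xaf1). Oas2 and Ifi44 were shared and rose by 1.21 ± 0.48 and 1.10 ± 0.43 in tissue and 3.26 ± 0.81 and 2.21 ± 0.52 in organoids, a call in tissue that neither kept with group weights. No member was shared when any organoid library, floxed tissue 1315, 1320 or 1321, or tumor 1322 was left out. Ifih1, the cytosolic RNA sensor MDA5, had 26.5, 23.3, 14.9 and 20.4 CPM in tumors, against 125, 150, 89.5 and 158 CPM in floxed tissue, and 38.96, 38.9 and 38.4 CPM in DKO organoids, against 29.1, 34.5 and 30.4 CPM in WT organoids. The tissue groups lay far apart and the organoid groups close together but separate, and the interaction was -2.96 ± 0.27 (adjusted p = 4.75e-06). Irf7, which amplifies interferon production, fell in tissue (-2.22 ± 0.26) and stood at 0.64 ± 0.29 in organoids (adjusted p = 0.277, and 0.025 with group weights). Bst2 (tetherin) and Isg20 (an exonuclease) were the members with a higher interaction: they rose by 2.16 ± 0.37 and 1.94 ± 0.25 in tissue and stood at -0.10 ± 0.39 and 0.13 ± 0.26 in organoids. Genes of immune cells moved in tissue as well. The 18 macrophage and dendritic cell genes summed to 940 to 2608 CPM in tumors and 325 to 673 CPM in floxed tissue, with 0 of them at 0 in every library of either group. Of these 10 rose and 3 fell, while of the 19 T and natural killer cell genes 0 rose and 9 fell (0 and 2 with group weights). Of all genes 31.5% rose and 26.4% fell in tissue (24.8% and 23.1% with group weights). The weighted fit thus showed no excess of T and natural killer cell genes that fell. T and natural killer cell genes summed to 36.1 to 77.4 CPM in tumors and 46.2 to 478 CPM in floxed tissue, with overlap. The part of immune cells in the interferon result was not tested.

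**Figure D3:**
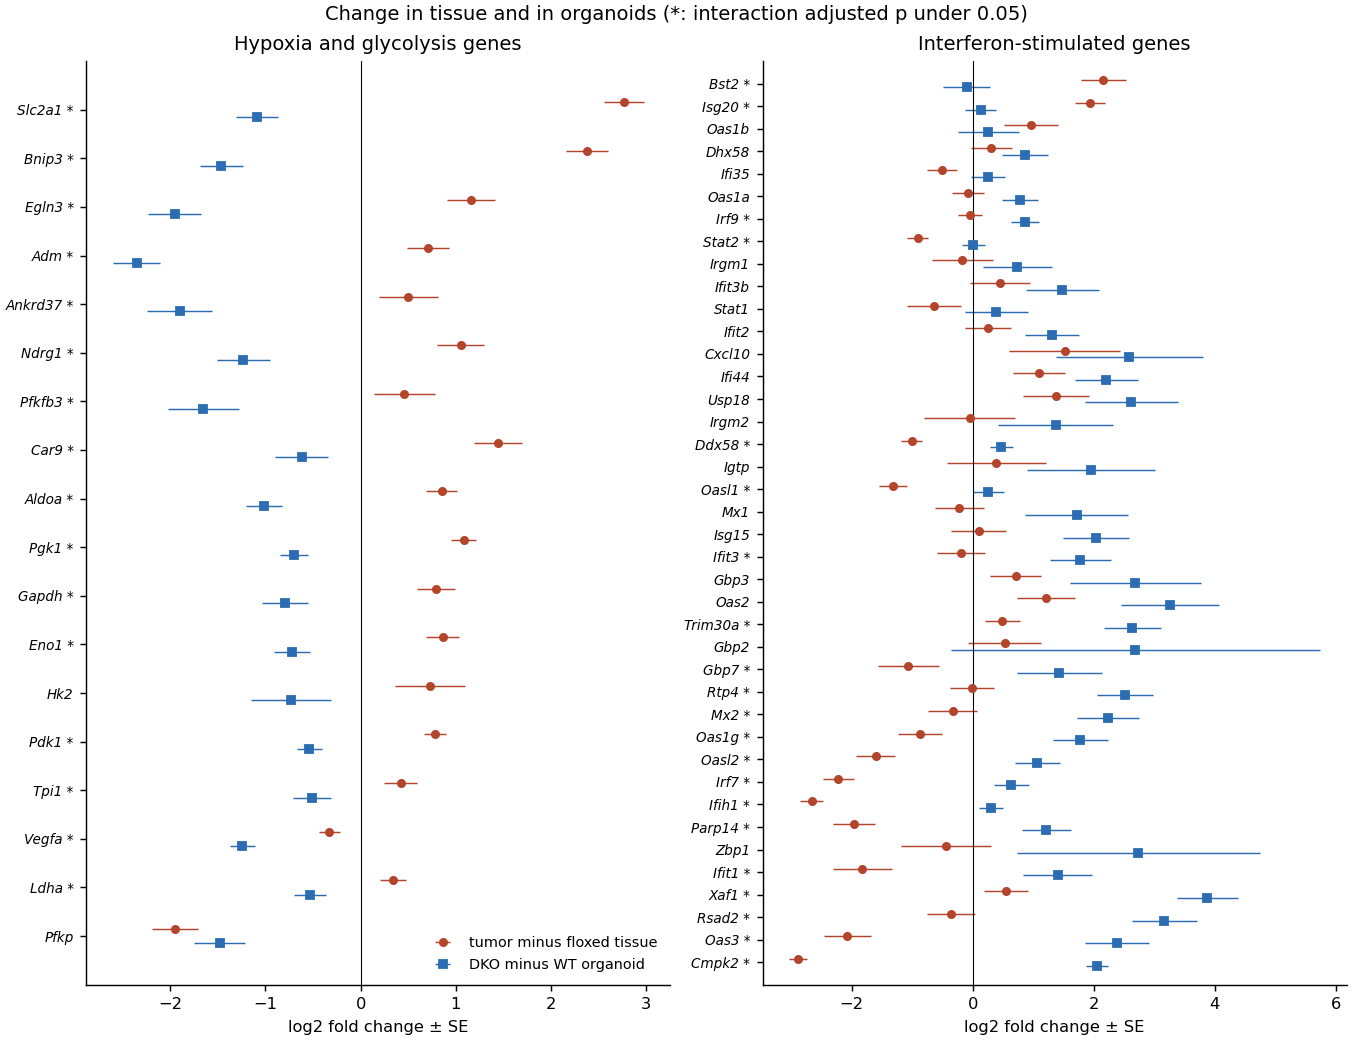
Tissue change (circles) and organoid change (squares), log2 ± SE, of 18 hypoxia and glycolysis genes (left) and 40 interferon-stimulated genes (right), ordered by the interaction, with an asterisk where the interaction was called. On the left, every square lies below 0 and 16 of 18 circles above it; on the right, 39 of 40 squares lie above 0 and circles on both sides.

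Wnt targets rose in tissue, and in the pooled fit, which called few organoid changes, 21 of 30 were tissue-only. Wnt signalling drives proliferation at the crypt base, and its targets include its own feedback inhibitors. Of 30 members, all tested and 24 of them expressed in organoids, 28 rose and 1 fell in tissue, 3 rose and 0 fell in organoids (15 and 1 with group weights, 6 and 0 without tumor 1322), and the interaction was higher for 23. Over all genes 31.5% rose and 26.4% fell in tissue, and the interaction was higher for 17.2%. In organoids 1.92% of all genes rose and 1.55% fell (19.7% and 16.6% with group weights). The motif CTTTGA of TCF factors was found in 5 of 29 promoters of 19 members (17.2%), searched as above, against 16% of all promoters. The median was 3.19 in tissue and 0.47 in organoids. Notum, a secreted enzyme that inactivates Wnt ligands, had 219, 244, 1316 and 333 CPM in tumors, against 0.7104, 0.8802, 0 and 0.646 CPM in floxed tissue, and 3.07, 3.08 and 2.197 CPM in DKO organoids, against 1.64, 4.04 and 3.06 CPM in WT organoids. Tumor 1322 stood far above the other tumors, and the organoid groups overlapped. The tissue change of Notum was 9.49 ± 0.79 and the interaction 9.56 ± 1.01 (adjusted p = 2.95e-05). Mmp7 (matrilysin, also a Paneth cell product) had 2693, 1178, 1530 and 2062 CPM in tumors, against 59.4, 43.4, 21.7 and 32.1 CPM in floxed tissue, and 16.04, 16.2 and 15.7 CPM in DKO organoids, against 29.7, 27.7 and 24.5 CPM in WT organoids. Its organoid change, -0.77 ± 0.30, was called only with group weights (adjusted p = 0.00069), where Mmp7 was opposite.

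Cd44, a hyaluronan receptor, rose in both sets by unequal amounts. It had 340, 369, 296 and 301 CPM in tumors, against 41.3, 44.6, 51.5 and 40.9 CPM in floxed tissue, and 109, 100 and 99.9 CPM in DKO organoids, against 53.6, 54.96 and 61.9 CPM in WT organoids, with no overlap in either set (tissue 2.91 ± 0.12, organoids 0.86 ± 0.12, interaction adjusted p = 1.73e-06). The transcription factor Prox1 did likewise, with 98.5, 75.7, 210 and 97.4 CPM in tumors, against 6.33, 4.35, 2.71 and 5.24 CPM in floxed tissue, and 7.51, 7.52 and 8.65 CPM in DKO organoids, against 3.17, 2.42 and 2.51 CPM in WT organoids (interaction 2.97 ± 0.44, adjusted p = 0.000187). Sfrp5 (a secreted Wnt inhibitor) was shared, at 3.71 ± 0.35 in tissue and 2.80 ± 0.33 in organoids. Axin2, a negative-feedback scaffold protein, was called in neither set: it stood at 0.82 ± 0.36 in tissue (adjusted p = 0.0629) and 0.76 ± 0.40 in organoids (adjusted p = 0.378).

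Stem cell markers rose in tissue. Of 23 members 18 rose and 0 fell in tissue, 4 rose and 1 fell in organoids (14 and 3 with group weights), and the interaction was higher for 15 and lower for 2. Among all genes 31.5% rose and 26.4% fell in tissue, and 1.92% and 1.55% in organoids (19.7% and 16.6% with group weights). The interaction was higher for 17.2% and lower for 16.1% of all genes. Lgr5, the receptor that marks crypt base stem cells, had 120, 78.2, 173 and 114 CPM in tumors, against 9.26, 5.87, 10.8 and 8.72 CPM in floxed tissue. It was abundant in both kinds of organoid, with 395, 391 and 394 CPM in DKO organoids, against 372, 339 and 287 CPM in WT organoids. The tissue change was 3.90 ± 0.25 and the organoid change 0.24 ± 0.23 (adjusted p = 0.696, and 0.0138 with group weights), with an interaction of 3.66 ± 0.33 (adjusted p = 4.12e-06). Smoc2, a matricellular protein, had 757, 708, 644 and 665 CPM in tumors, against 62.6, 69.2, 56.95 and 59.01 CPM in floxed tissue, and 621, 610 and 621 CPM in DKO organoids, against 469, 475 and 475 CPM in WT organoids (interaction 3.09 ± 0.15, adjusted p = 3.29e-08). Nrn1, a small membrane-anchored neuritin protein, was opposite: tumors held 22.3, 8.32, 50.4 and 14.8 CPM, against 2.72, 1.37, 0 and 2.15 CPM in floxed tissue, and DKO organoids held 17.7, 15.1 and 14.4 CPM, against 97.7, 79.3 and 69.7 CPM in WT organoids (interaction 5.91 ± 0.73, adjusted p = 7.38e-05). Its groups were separate in both sets, as the rule that named opposite genes by size required.

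Of 25 tested fetal-like and YAP target genes, a list used to mark regenerating epithelium, 20 were expressed in organoids. In tissue 20 members rose and 2 fell, while 1 rose and 2 fell in organoids (2 and 9 with group weights). The part of stromal and immune cells in this tissue result was not tested. The interaction was higher for 17 and lower for 1, against 17.2% and 16.1% of all genes. Among all genes 31.5% rose and 26.4% fell in tissue, and 1.92% and 1.55% in organoids (19.7% and 16.6% with group weights). Clu (clusterin) had 1697, 2490, 4390 and 1822 CPM in tumors, against 35.1, 53.2, 43.4 and 41.3 CPM in floxed tissue, and 9.38, 9.69 and 8.65 CPM in DKO organoids, against 6.55, 4.53 and 7.43 CPM in WT organoids. Its tissue change was 5.91 ± 0.33, and its organoid change, 0.59 ± 0.32, was not called (adjusted p = 0.388). Areg (amphiregulin, a ligand of the EGF receptor) was opposite, with 57.5, 68.5, 22.03 and 22.8 CPM in tumors, against 15.6, 21.3, 8.14 and 8.79 CPM in floxed tissue, and 28.9, 30.7 and 27.6 CPM in DKO organoids, against 149, 186 and 153 CPM in WT organoids. The organoid fall was without overlap and the tumor range began just above the highest floxed value (interaction 4.02 ± 0.58, adjusted p = 0.000215). Epiregulin (Ereg), a related ligand, fell in organoids (-4.10 ± 0.80) and stood at 1.09 ± 0.50 in tissue (adjusted p = 0.0775).

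Gastric and Brunner gland genes rose in tumors. Summed over 20 tested members they reached 1642 to 6773 CPM in tumors, against 892 to 1386 CPM in floxed tissue. In tissue 18 of the 20 rose and 0 fell, and 2, Vsig1 and Pgc (pepsinogen C), rose in organoids as well. Organoids expressed 8 of the 20, and the interaction was higher for 9. Over all genes 31.5% rose and 26.4% fell in tissue, 1.92% rose in organoids, and the interaction was higher for 17.2%. Gut position, which the labels do not give, and tumor state cannot be told apart in the rise of this list in tissue. Vsig1, a junction protein of gastric epithelium, had 32, 16.6, 21.1 and 52.1 CPM in tumors, against 0, 0.0489, 0 and 0 CPM in floxed tissue, and 2.79, 2.91 and 2.13 CPM in DKO organoids, against 0.7098, 0.439 and 0.328 CPM in WT organoids. Gkn3, a gastrokine, had 541, 31.1, 535 and 888 CPM in tumors, against 0.592, 0.196, 0 and 0.6098 CPM in floxed tissue, and 7.74, 7.58 and 7.32 CPM in DKO organoids, against 1.09, 1.801 and 2.51 CPM in WT organoids. Both genes were thus higher, without overlap, in the double-deleted group of each set, and the organoid change of Gkn3, 2.06 ± 0.85, was not called (adjusted p = 0.233, and 0.137 with group weights).

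Genes of mature enterocytes, the absorptive cells of the villus, mostly fell where they changed in tumors. Of 30 members, all expressed in organoids, 4 rose and 14 fell in tissue, 0 changed in organoids (4 rose and 0 fell with group weights), and the interaction was lower for 7 and higher for 3. In tissue 31.5% of all genes rose and 26.4% fell. The interaction was lower for 16.1% and higher for 17.2% of all genes, so the interaction calls of the list were near those shares in the pooled fit. The number of lower interaction calls was 19 with group weights, against 21.6% of all genes, and between 3 and 4 without DKO organoid 2 or 3 or any WT organoid library. Vil1, a brush border actin-binding protein, had 771, 234, 226 and 665 CPM in tumors, against 3280, 4777, 3702 and 3851 CPM in floxed tissue, and 501, 468 and 475 CPM in DKO organoids, against 485, 538 and 532 CPM in WT organoids. The tissue groups were separate and the organoid groups close (tissue change -3.04 ± 0.36, interaction adjusted p = 0.00072). The 6 epithelial genes of a control list summed to 5529 to 9528 CPM in tumors, against 16850 to 20680 CPM in floxed tissue, and 4497 to 4691 CPM in DKO organoids, against 4258 to 4405 CPM in WT organoids. Their part in the enterocyte result was not tested.

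Of the 10 ileal enterocyte genes, 0 rose and 9 fell in tissue, 0 changed in organoids (1 rose with group weights), and the interaction was lower for 6. In tissue 31.5% of all genes rose and 26.4% fell, and the interaction was lower for 16.1%. Slc10a2, the ileal bile acid transporter, had 13.1, 13.4, 3.23 and 4.06 CPM in tumors, against 2129, 1514, 1302 and 2008 CPM in floxed tissue, and 1.14, 0.456 and 1.06 CPM in DKO organoids, against 1.04, 0.923 and 1.64 CPM in WT organoids. Cubn, the receptor for vitamin B12 bound to intrinsic factor, had 17, 7.27, 6.03 and 13.8 CPM in tumors, against 1302, 911, 1041 and 974 CPM in floxed tissue, and 1.54, 1.37 and 1.398 CPM in DKO organoids, against 0.546, 2.02 and 1.09 CPM in WT organoids. Both were high in every floxed library, much lower in every tumor, and low in both kinds of organoid. Fabp1, a fatty acid binding protein of the proximal intestine, went the other way, with 1390, 59.8, 52.5 and 1012 CPM in tumors, against 10.03, 12.3, 8.14 and 8.11 CPM in floxed tissue, and 431, 436 and 458 CPM in DKO organoids, against 339, 743 and 584 CPM in WT organoids (tissue change 5.97 ± 1.04). Ileal genes summed to 314 to 1017 CPM in tumors, against 13700 to 19150 CPM in floxed tissue, so position along the gut, which the labels do not give, and tumor state cannot be told apart in the tissue change.

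Markers of secretory cells went both ways in tissue, where 31.5% of all genes rose and 26.4% fell. In organoids 1.92% of all genes rose, and the interaction was higher for 17.2% and lower for 16.1%. Goblet cell markers rose for 5 and fell for 9 of 17 members in tissue, against 1 and 0 in organoids, and the interaction was higher for 2 and lower for 5 (10 lower with group weights, 9 without tumor 1322, 8 without tumor 1349). Paneth cell markers rose for 5 and fell for 9 of 15 tested members in tissue, against 1 and 0 in organoids, with a higher interaction for 4 and a lower one for 9. Summed Paneth cell markers were 2556 to 5080 CPM in tumors, against 1707 to 5493 CPM in floxed tissue, with overlap. Enteroendocrine genes rose for 2 and fell for 11 of 22, against 1 and 0 in organoids, with a higher interaction for 0 and a lower one for 10. The enteroendocrine factor Insm1 was organoid-only: it had 28.7, 27.6 and 27.8 CPM in DKO organoids, against 11.5, 9.01 and 10.6 CPM in WT organoids, and 1.11, 1.33, 1.83 and 2.28 CPM in tumors, against 2.101, 1.42, 5.42 and 1.61 CPM in floxed tissue (interaction -1.58 ± 0.38, adjusted p = 0.00562). Its organoid groups were separate, as the rule that named it required, and the tissue groups overlapped.

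Ribosomal protein genes showed the most uniform interaction among the lists whose members organoids express. All 30 rose in tissue, 0 changed in organoids, and the interaction was higher for 29. Of all genes 31.5% rose in tissue, and the interaction was higher for 17.2%. With group weights 18 members fell and 2 rose in organoids, where 16.6% and 19.7% of all genes did. The median was 1.18 in tissue and -0.17 in organoids. Their summed level was 17170 to 23380 CPM in tumors, against 9462 to 11040 CPM in floxed tissue, and 12780 to 13040 CPM in DKO organoids, against 13980 to 15270 CPM in WT organoids, with no overlap in either set. The tumors were above floxed tissue and the DKO organoids below WT organoids. Adjacent tissue of the tumor-bearing mice, outside the 14 libraries, held 13590 to 19600 CPM, above floxed tissue and overlapping tumors.

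Replication genes rose in tissue and, with group weights, in organoids. Of all genes 31.5% rose and 26.4% fell in tissue, and 1.92% and 1.55% in organoids (19.7% and 16.6% with group weights). The interaction was higher for 17.2% and lower for 16.1% of all genes. Of 30 S phase and replication genes, 25 rose and 2 fell in tissue (median 1.24), and 0 changed in organoids in the pooled fit but 27 rose and 0 fell with group weights (median 0.40). The interaction was higher for 13 and lower for 1, and higher for 20 without tumor 1323. Of 28 G2/M phase genes, 18 rose and 0 fell in tissue, 0 rose and 1 fell in organoids (15 and 2 with group weights), and the interaction was higher for 1, or for 7 without tumor 1323 and 11 without tumor 1319. The member that fell in organoids was Pttg1 (securin), with 11.6, 14.4 and 12.7 CPM in DKO organoids, against 30.8, 34.4 and 32.9 CPM in WT organoids, and 33.8, 28.4, 53.7 and 18.8 CPM in tumors, against 21.7, 27.3, 21.7 and 26.98 CPM in floxed tissue. Its interaction was 1.77 ± 0.37 (adjusted p = 0.00218). Of 26 DNA damage signalling and repair genes 19 rose and 0 fell in tissue, 0 changed in organoids (15 rose and 3 fell with group weights), and the interaction was higher for 8, or for 3 to 5 without floxed tissue 1316 or 1321, any DKO organoid library or WT organoid A or C.

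Cholesterol synthesis genes mostly fell in tissue, whereas all 20 organoid changes lay above 0. Of 20 members 2 rose and 12 fell in tissue, 0 changed in organoids in the pooled fit (14 rose and 0 fell with group weights), and the interaction was lower for 12 and higher for 1. Among all genes 31.5% rose and 26.4% fell in tissue, and with group weights 19.7% rose and 16.6% fell in organoids. The interaction was lower for 16.1% and higher for 17.2% of all genes. Hmgcs1, an early enzyme of the pathway, had 228, 104, 70.9 and 154 CPM in tumors, against 741, 828, 938 and 819 CPM in floxed tissue, and 833, 832 and 851 CPM in DKO organoids, against 657, 634 and 643 CPM in WT organoids. The groups were separate in both sets, in opposite orders, and the interaction was -2.96 ± 0.40 (adjusted p = 8.49e-05). Of 20 NRF2 targets, genes of antioxidant defence, 8 rose and 5 fell in tissue, near the shares of all genes (31.5% and 26.4%), and 0 changed in organoids (1 rose and 7 fell with group weights). The haem oxygenase gene Hmox1 rose by 5.27 ± 0.59 in tissue and stood at -1.27 ± 0.53 in organoids (adjusted p = 0.242, and 0.000423 with group weights), with an interaction of 6.55 ± 0.79 (adjusted p = 6.83e-05). Of 12 tested genes of the mitochondrial genome, 0 rose and 7 fell in tissue, 0 changed in organoids, and the interaction was lower for 5.

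**Figure D4:**
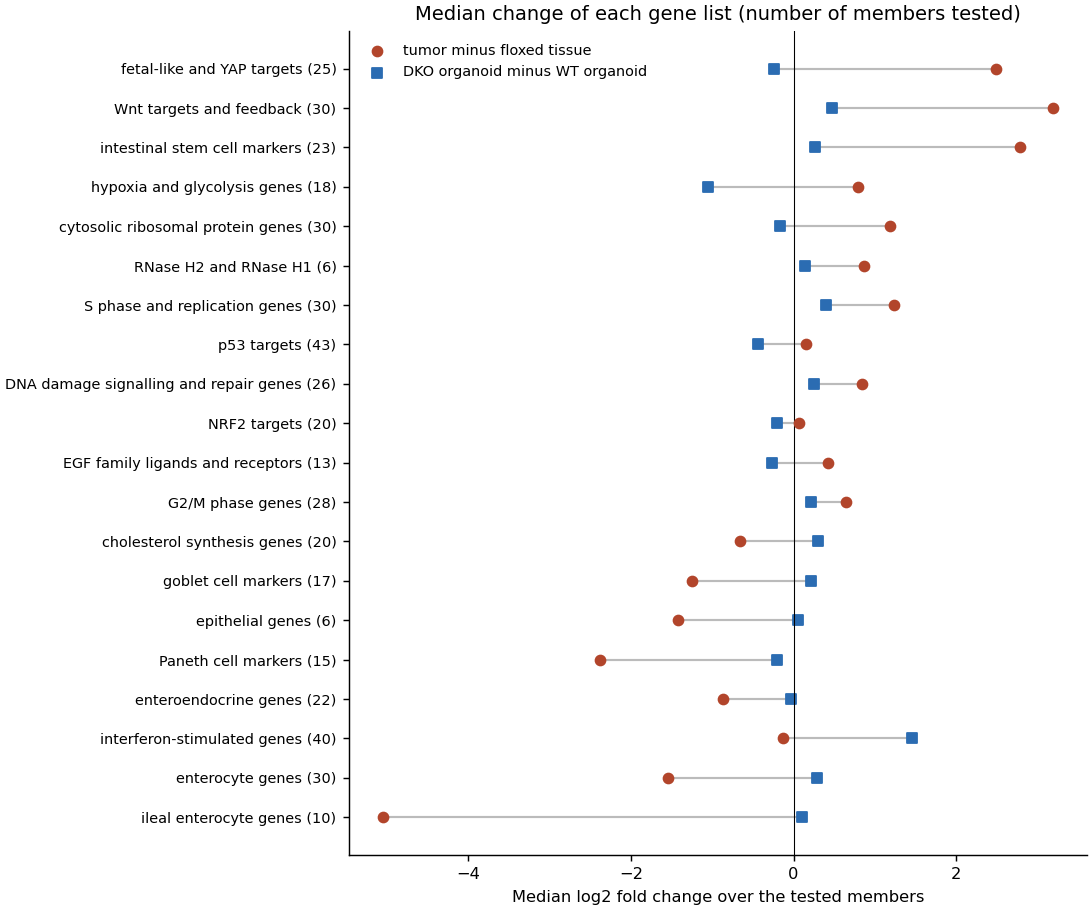
Median log2 fold change over the tested members of each gene list in tissue (circles) and in organoids (squares), with lines joining the 2 medians of a list, for lists with at least 75% of their members tested and expressed in organoids. Hypoxia and glycolysis genes have medians on opposite sides of 0, as do p53 target, interferon-stimulated, fetal-like, enterocyte, cholesterol synthesis, ribosomal protein and other lists. The S phase, Wnt and stem cell lists have both medians above 0.

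Genes of cells that organoids lack made up other tissue changes, and for them the organoid libraries give almost no measurement. All 15 neutrophil genes and all 15 endothelial genes rose in tumors, all 15 smooth muscle genes fell, and fibroblast and matrix genes rose for 17 and fell for 1 of 24. Of these lists 0, 3, 4 and 3 members passed the filter in organoids. Over all genes 31.5% rose and 26.4% fell in tissue. Smooth muscle genes summed to 962 to 1993 CPM in tumors, against 8098 to 14260 CPM in floxed tissue, and endothelial genes to 391 to 850 CPM in tumors, against 130 to 218 CPM in floxed tissue. Adjacent tissue of the tumor-bearing mice held 349.8 to 529.7 CPM of endothelial genes, above floxed tissue and overlapping tumors. Its smooth muscle genes (5348 to 8697 CPM) and fibroblast and matrix genes (1035 to 2574 CPM) overlapped floxed tissue and not tumors. Its neutrophil genes (82.4 to 296 CPM) lay above floxed tissue and below tumors. S100a9, a subunit of calprotectin, had 177, 927, 114 and 254 CPM in tumors, against 0.503, 0.293, 0 and 0.179 CPM in floxed tissue, and 0.0569, 0.05698 and 0 CPM in DKO organoids, against 0.273, 0.176 and 0.383 CPM in WT organoids. Its tissue change was 10.08 ± 0.88, and no fold change is given in organoids, where it was near 0. Ltf (lactoferrin), Spp1 (osteopontin) and Col9a3 (a collagen chain) were of the same kind, with tissue changes of 8.49 ± 0.93, 8.56 ± 0.62 and 8.92 ± 0.74, and at most 0.395 CPM in any organoid library.

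Neutrophil chemokine and interleukin 1 genes rose in tumors for 15 of 15 members, where 31.5% of all genes rose. Of the 5 expressed in organoids 1, Il1rn, rose there too, where 1.92% of all genes rose. Il1rn, the interleukin 1 receptor antagonist, had 77.99, 205, 88.1 and 63.6 CPM in tumors, against 4.29, 5.53, 5.42 and 5.49 CPM in floxed tissue, and 10.6, 12.02 and 10.2 CPM in DKO organoids, against 3.28, 4.83 and 2.57 CPM in WT organoids. It rose by 4.41 ± 0.38 in tissue and 1.61 ± 0.38 in organoids (interaction adjusted p = 0.00101), with no overlap in either set.

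Named by the size of their change rather than by a list, the shared genes that rose were Fstl1, Icam1, Fgfr4 and Ccl9. Fstl1, a secreted follistatin-like glycoprotein, had 321, 766, 221 and 238 CPM in tumors, against 44.6, 58.7, 46.1 and 44.3 CPM in floxed tissue, and 7.51, 6.89 and 7.32 CPM in DKO organoids, against 0.655, 0.351 and 0.273 CPM in WT organoids. Its interaction was -1.09 ± 0.64 (adjusted p = 0.224) and was called without tumor 1323. Fgfr4, a fibroblast growth factor receptor, had 27.8, 21.8, 35.96 and 23.8 CPM in tumors, against 10.9, 4.35, 13.6 and 9.61 CPM in floxed tissue, and 20.4, 18.5 and 17.2 CPM in DKO organoids, against 4.97, 3.91 and 5.36 CPM in WT organoids. It rose by 1.66 ± 0.28 in tissue and 1.98 ± 0.30 in organoids. Icam1 (an adhesion molecule for leukocytes) and Ccl9 (a chemokine) rose by 2.97 ± 0.29 and 2.80 ± 0.33 in tissue and 1.97 ± 0.34 and 1.61 ± 0.36 in organoids. The interaction of Icam1 (adjusted p = 0.0957) was called with group weights or without floxed tissue 1316, and that of Ccl9, 1.19 ± 0.47, with DESeq2 or without tumor 1322, tumor 1319 or WT organoid B.

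The shared genes that fell were Cdkn1a, given above, Osr2, Cpm and Ppargc1a. Ppargc1a, the coactivator PGC-1 alpha that drives mitochondrial biogenesis, had 15.6, 10.98, 9.43 and 19.9 CPM in tumors, against 63.3, 40.2, 37.97 and 39.5 CPM in floxed tissue, and 6.48, 7.41 and 7.66 CPM in DKO organoids, against 29.1, 37.2 and 27.5 CPM in WT organoids. Its changes were -1.73 ± 0.24 and -2.12 ± 0.28, with an interaction of 0.40 ± 0.35 (adjusted p = 0.444). The odd-skipped transcription factor gene Osr2 fell in both sets (-2.75 ± 0.33 in tissue and -1.88 ± 0.41 in organoids), as did the carboxypeptidase gene Cpm (-1.84 ± 0.29 and -2.03 ± 0.36). A p that misses the threshold does not show that the changes were equal: the SE of these interactions was 0.35 to 0.52 for Ppargc1a, Cpm and Osr2.

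Same-way genes of unequal change included Arnt2, Ifitm3, Arntl and Rb1 beside Prox1, Il1rn, Trp53 and Myl9. Ifitm3, an antiviral membrane protein, had 484, 458, 897 and 398 CPM in tumors, against 31.9, 53.5, 24.4 and 37.02 CPM in floxed tissue, and 115, 105 and 92.3 CPM in DKO organoids, against 35.05, 35.01 and 38.6 CPM in WT organoids. It rose in both sets, more in tissue (interaction 2.33 ± 0.37, adjusted p = 0.000334). Arnt2, a partner of bHLH-PAS transcription factors, rose by 2.98 ± 0.24 in tissue and 1.87 ± 0.24 in organoids. Arntl, the clock factor BMAL1, had 13.4, 17.1, 11.2 and 16.8 CPM in tumors, against 68.7, 97.8, 78.7 and 108 CPM in floxed tissue, and 13.1, 12.8 and 14.3 CPM in DKO organoids, against 31.3, 32.6 and 32.6 CPM in WT organoids (interaction -1.35 ± 0.25, adjusted p = 0.000865). Sampling times are not given in the sources used here. Rb1, the retinoblastoma tumor suppressor, had 31.4, 25.02, 11.97 and 26.9 CPM in tumors, against 141, 102, 125 and 117 CPM in floxed tissue, and 30.9, 29.7 and 32.8 CPM in DKO organoids, against 70.6, 80.8 and 70.8 CPM in WT organoids. Rb1 was lower in every deleted library, which the rule that named it required. Its interaction, -1.09 ± 0.33 (adjusted p = 0.0202), was not called without WT organoid A or C. Myl9, a myosin light chain of smooth muscle, fell in tissue (-2.58 ± 0.20) and organoids (-1.20 ± 0.22), with 30.3, 26.9 and 31.2 CPM in DKO organoids, against 53.01, 91.3 and 58.2 CPM in WT organoids.

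The opposite genes that rose in tumors included Nrn1, P4ha2 and Ero1l. P4ha2, a collagen prolyl hydroxylase, had 31.6, 45.8, 83.6 and 30.1 CPM in tumors, against 5.62, 6.31, 5.42 and 4.92 CPM in floxed tissue, and 14.6, 15.5 and 13.8 CPM in DKO organoids, against 49.7, 50.1 and 47.3 CPM in WT organoids. Ero1l, an oxidase of disulfide formation in the endoplasmic reticulum, had 208, 257, 264 and 151 CPM in tumors, against 63.99, 72.4, 51.5 and 71.8 CPM in floxed tissue, and 233, 273 and 283 CPM in DKO organoids, against 913, 1027 and 838 CPM in WT organoids. The groups of P4ha2 and Ero1l were separate in both sets, as the rule that named these genes required. Their interactions were 4.84 ± 0.42 (adjusted p = 3.41e-06) and 3.54 ± 0.26 (adjusted p = 1.14e-06).

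The opposite genes that fell in tumors were led by Oas3, Cmpk2, Trim30d and Tgfbi. Trim30d, a tripartite motif gene with near-identical neighbours among which reads may be split, had 20.4, 14.3, 15.2 and 33.5 CPM in tumors, against 100, 110, 103 and 121 CPM in floxed tissue, and 4.04, 6.15 and 5.73 CPM in DKO organoids, against 1.04, 1.58 and 1.97 CPM in WT organoids (interaction -4.18 ± 0.42, adjusted p = 1e-05). Tgfbi, a matrix protein induced by TGF-beta, had 260, 460, 118 and 199 CPM in tumors, against 856, 1073, 730 and 1142 CPM in floxed tissue, and 7.05, 6.78 and 6.79 CPM in DKO organoids, against 1.75, 2.504 and 2.19 CPM in WT organoids (interaction -3.55 ± 0.51, adjusted p = 0.000164). The rule that named Trim30d and Tgfbi required that no library of one group reached the range of the other.

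**Figure D5:**
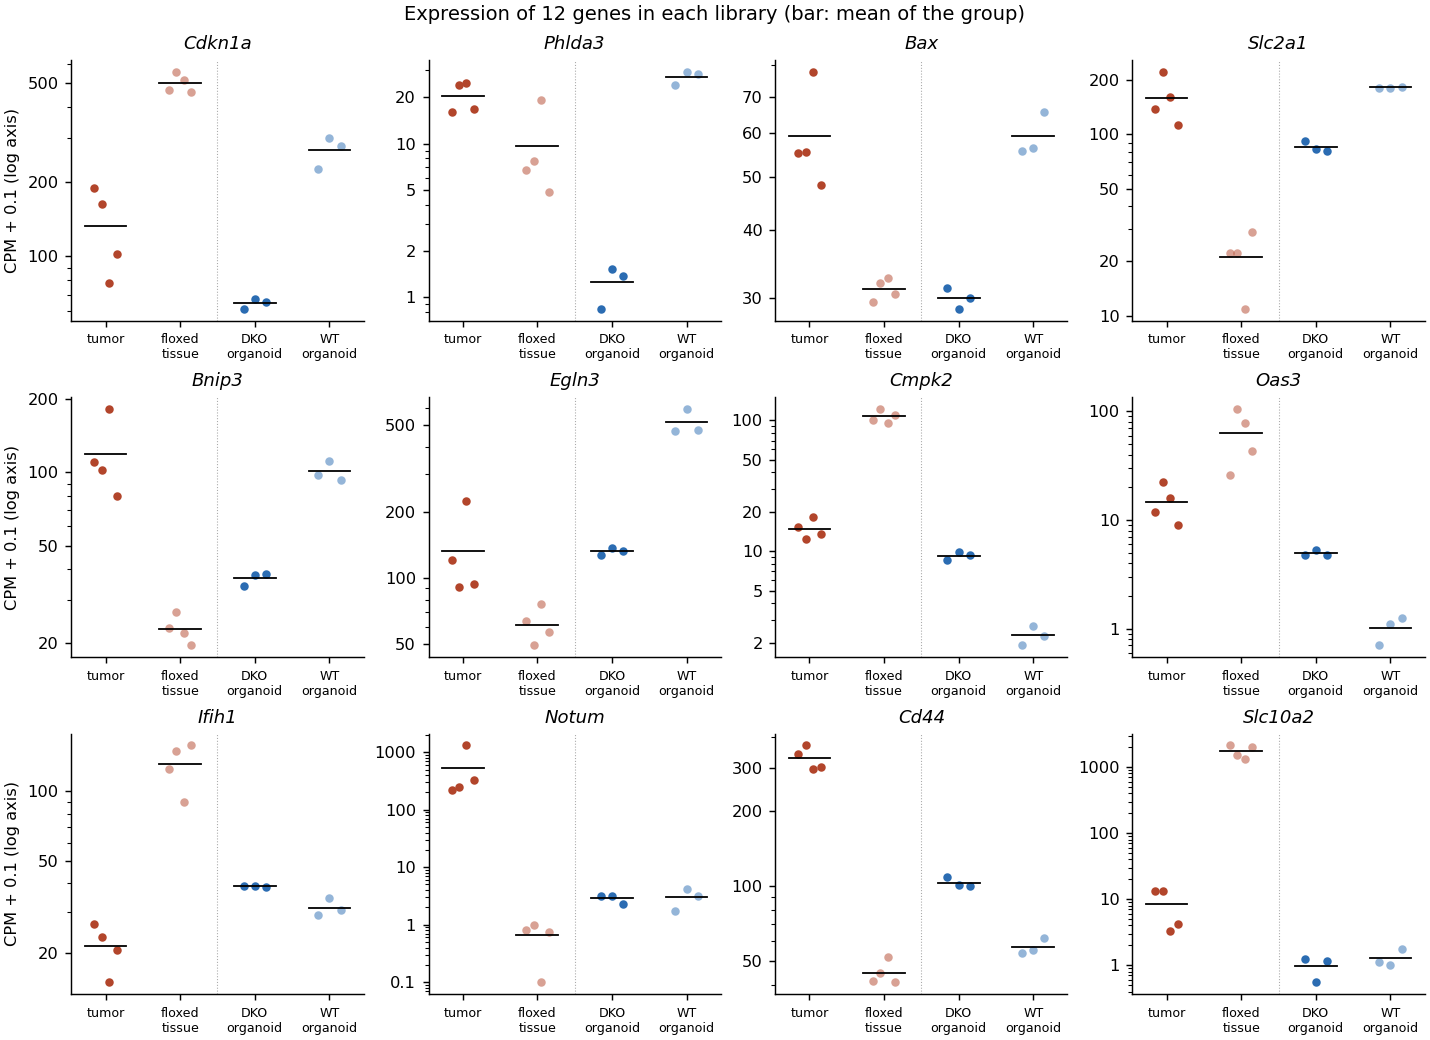
Expression of 12 genes in each library (CPM + 0.1, log axis), with tumors and floxed tissue left of the dotted line and DKO and WT organoids right of it, and a bar at the mean of each group. Cdkn1a is lower in both double-deleted groups, Slc2a1, Bnip3 and Egln3 are higher in tumors and lower in DKO organoids, Cmpk2 and Oas3 the reverse, and Notum and Slc10a2 differ between the tissue groups alone.

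Tissue-only genes that passed the filter in both sets were led by Notum, Pnliprp1, Gkn3 and Wif1 upwards and by Mep1a, Slc13a1, Slc10a2 and Cubn downwards. Wif1, a secreted Wnt inhibitor, had 192, 54.3, 444 and 165 CPM in tumors, against 0.414, 0.4401, 5.42 and 0.215 CPM in floxed tissue, where the value of 5.42 CPM belongs to the shallow library 1320. It had at most 0.666 CPM in any organoid library, and its interaction of 7.71 ± 1.79 was not called without WT organoid B. Pnliprp1, a pancreatic lipase-related protein, ranged widely between tumors, with 151, 16.9, 1539 and 415 CPM, against 1.21, 0.342, 2.71 and 0.4305 CPM in floxed tissue (tissue change 9.52 ± 1.37), and its interaction was not called with group weights. Mep1a, a brush border metalloprotease, had 35.9, 14.2, 1.57 and 25.7 CPM in tumors, against 3221, 2823, 3173 and 2932 CPM in floxed tissue, and 46.98, 48.3 and 51.8 CPM in DKO organoids, against 29.9, 34.5 and 29.4 CPM in WT organoids. The organoid groups of Mep1a were separate with DKO organoids higher, a difference of 0.65 ± 0.65 that was called with group weights (adjusted p = 0.00982) and not in the pooled fit. Slc13a1, a sulfate transporter, fell in tissue (-6.20 ± 0.86) and stood at 1.73 ± 1.05 in organoids. Of tissue-only genes that did not pass the filter in organoids, the leading ones that fell were Tmigd1, Defa21, Synm and Ciita, with tissue changes of -7.08 ± 0.69, -5.40 ± 0.43, -4.34 ± 0.55 and -3.40 ± 0.63 and less than 1 CPM in any organoid library. Tmigd1 is an adhesion molecule of the brush border, Defa21 one of the near-identical Paneth cell defensin genes among which reads may be split, Synm an intermediate filament protein of muscle and Ciita the activator of MHC class II genes. Ciita had 2.903, 4.76, 6.198 and 6.34 CPM in tumors, against 8.55, 92.1, 16.3 and 81.1 CPM in floxed tissue, without overlap, and of 9 tested MHC class II genes 0 rose and 8 fell in tissue (0 and 2 with group weights, by which 24.8% of all genes rose and 23.1% fell in tissue).

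Organoid-only genes were led by Insm1, Tshz2, Trp53i11 and Fgfr2 upwards and by Chac1, Emid1, Ankrd37 and Banp downwards. Trp53i11, named as a p53-inducible gene, had 58.9, 55.7 and 52.1 CPM in DKO organoids, against 22, 19.8 and 19.1 CPM in WT organoids, and 69.4, 61.8, 70.5 and 49.8 CPM in tumors, against 59.4, 73.2, 48.8 and 78.02 CPM in floxed tissue. It was higher without overlap in the organoids that lack p53, by 1.45 ± 0.17, and overlapped in tissue (interaction adjusted p = 0.000123). Tshz2, a zinc finger protein, had 12.8, 15.2 and 14.2 CPM in DKO organoids, against 3.55, 4.44 and 5.79 CPM in WT organoids, and 29.6, 32.1, 37.6 and 39.2 CPM in tumors, against 33.5, 37.7, 21.7 and 33.3 CPM in floxed tissue. Chac1, a glutathione-degrading enzyme of the stress response, had 9.33, 8.72 and 9.45 CPM in DKO organoids, against 45.1, 42.5 and 55.5 CPM in WT organoids, and 2.94, 14.8, 7.599 and 4.93 CPM in tumors, against 1.42, 4.21, 2.71 and 6.82 CPM in floxed tissue. The tissue groups of Tshz2 and Chac1 overlapped and their interactions were -1.55 ± 0.26 (adjusted p = 0.000481) and 3.27 ± 0.74 (adjusted p = 0.00415). Emid1 and Banp fell in organoids, with changes of -2.16 ± 0.24 and -1.95 ± 0.37, and Fgfr2 rose by 1.61 ± 0.38, with an interaction (-1.41 ± 0.49, adjusted p = 0.0423) that was lost without any single library except floxed tissue 1320 and tumors 1322 and 1323.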

How the data were processed

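Each library was deposited as a table of counts per Ensembl gene, which the authors made from reads of poly(A)-selected, strand-marking TruSeq libraries, per the labels' protocols. The submitters' processing notes name cutadapt 1.5 and 1.9, Trimmomatic 0.36, TopHat2 2.0.14, HTSeq and the build GRCm38, without saying which tool made which file, and the counting options are not given in the sources used here. Summary rows that name no gene were left out of all totals. Gene symbols came from the gene name table supplied with the reference, which named 49326 of the 49466 genes.

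The 14 libraries were fitted together with edgeR 4.0.16 (R 4.3.3): filterByExpr by group, TMM factors, 1 mean per group, a robust quasi-likelihood fit and contrasts for tissue, organoids and their difference, with Benjamini-Hochberg adjustment over 19727 genes and a threshold of 0.05. Because of the unequal spread, limma 3.58.1 (voom with weights estimated by group) was run beside it. Other alternatives were DESeq2 1.42.0, other scaling factors and filters, each set alone, and leaving out each library. The script was tested on simulated data. Replicates differed by more than sampling noise: the chi-square of each pair's counts was at least 1.94 times its degrees of freedom.

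The comparison, the gene lists and the rules were chosen with earlier results of these data known. For each direction of each class, the 4 protein-coding genes of the largest change were named with average log2 CPM no lower than 3 and with groups that did not overlap. Lack of overlap in each set called was therefore required by this rule, also for Cdkn1a, Cmpk2, Oas3, Il1rn, Trp53i11 and Ciita. A gene that this rule named is not reported here. For each list, the 4 members with the smallest interaction p (8 for p53 and Wnt targets) and all opposite members were eligible. Members named outside this rule (Ccng1, Polk, Mdm2, Perp, Fas, Eda2r, Ephx1, Psrc1, Sesn2, Trp53inp1, Vegfa, Pfkp, Pfkfb3, Axin2, Sfrp5, Ereg, Pgc, Bst2, Isg20, Oas2, Ifi44 and the organoid-only interferon-stimulated genes) were chosen after their values were seen. Depth sets the precision: floxed tissue 1320, at 401365 counts, resolves low genes poorly.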

Additional observations from a re-analysis of the deposited data

Results flagged for a closer look

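Single libraries stood apart from the other 3 of their group for 16 gene and group combinations of 174 tested, where chance alone marks about 1 group in 20. Tumor 1322 was above the other tumors for Bmp7 (200 CPM), Notum (1316 CPM, others 219 to 333), Col9a3 (941 CPM, others 188 to 262) and Prox1 (210 CPM, others 75.7 to 98.5). Tumor 1323 was above the others for Icam1 (124 CPM, others 62.4 to 66.4) and Hmox1 (227 CPM, others 38.2 to 68.0). Tumor 1319 was below the others for Osr2 (8.92 CPM, others 29.7 to 32.3).

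In floxed tissue, the shallow library 1320 was above the others for Wif1 (5.42 CPM), Col9a3 (5.42 CPM), Insm1 (5.42 CPM), Ankrd37 (24.4 CPM) and Aen (29.8 CPM). Library 1316 was above the others for Fstl1 (58.7 CPM, others 44.3 to 46.1) and held the only Vsig1 reads (0.0489 CPM). Library 1315 was above the others for Ppargc1a (63.3 CPM, others 38.0 to 40.2) and below them for Il1rn (4.29 CPM, others 5.42 to 5.53).

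Some genes moved in opposite directions in tumors and DKO organoids, and the interaction term tested that difference in edgeR's quasi-likelihood fit with Benjamini-Hochberg adjustment. Higher in tumors and lower in DKO organoids were Gdf15 (interaction 6.55), Phlda3 (6.11), Nrn1 (5.91), P4ha2 (4.84), Areg (4.02), Slc2a1 (3.85), Bnip3 (3.83), Ero1l (3.54), Egln3 (3.11), Adm (3.06), Ndrg1 (2.29), Bax (1.93), Aldoa (1.86), Pgk1 (1.78), Tnfrsf10b (1.65) and Pdk1 (1.32). Lower in tumors and higher in DKO organoids were Cmpk2 (-4.93), Oas3 (-4.45), Trim30d (-4.18), Tgfbi (-3.55) and Ret (-2.46). What lies behind these differences was not tested.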

How the results depend on the processing

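Under the alternatives run, no interaction call of a named gene reversed its direction. For the counts only their size was compared, and reversals within classes were not checked. Classes did change with the fit: 0 ribosomal protein genes were opposite in the pooled fit and 18 with group weights. The counts of the interaction and of tissue genes stayed within 1.5 times under each alternative, whereas counts that need an organoid call did not. With group weights, organoid calls were 3889 higher and 3266 lower, shared genes 740 and 472, same-way unequal genes 786 and 726, higher tissue-only genes 1997, organoid-only genes 442 and 350, and opposite genes 576 and 649. DESeq2 gave 696 and 528 organoid calls, 251 and 137 shared, 156 and 59 unequal, 107 higher organoid-only, and 148 and 101 opposite genes. Organoids fitted alone gave 3478 and 3568 calls. Tissue fitted alone gave 4937 higher and 4452 lower calls, against 6209 and 5211 in the pooled fit. With genes that passed the filter in each set, lower shared genes were 120, lower unequal genes 60 and undecided genes 2635, since fewer genes were tested. With no filter, lower unequal genes were 21 and opposite genes lower in tumors 34. Without floxed tissue 1320 and tumor 1349, an alternative added after seeing the data, lower shared genes were 118 and lower unequal genes 62. The cause was not tested for the other shifts.

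Leaving out each library in turn gave 2718 to 3748 higher and 2571 to 3455 lower interaction calls, 5513 to 6262 and 4591 to 5325 tissue calls, and 91 to 713 and 79 to 575 organoid calls. Shared genes ranged over 25 to 233 and 14 to 157, unequal genes over 22 to 152 and 6 to 81, tissue-only genes over 2537 to 3230 and 2406 to 3015, organoid-only genes over 25 to 126 and 21 to 110, opposite genes over 30 to 169 and 13 to 120, and undecided genes over 4505 to 6315. The low ends of the organoid counts came from leaving out an organoid library and the high ends from leaving out tumor 1322. Of 187 named genes, 173 kept their side of the interaction threshold with group weights and 179 with DESeq2.

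No paired analysis was possible because the 4 groups share no replicate numbers in the labels. A sex term was not run, since 1 tissue mouse alone held Y-linked reads. Line and genotype in organoids, and gut position and tumor state in tissue, cannot be told apart, and organoids hold too few reads of stromal and immune genes to measure their change.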

Other observations

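Of 13 tested EGF family ligands and receptors 5 rose and 3 fell in tissue, near the shares of all genes (31.5% and 26.4%). In organoids 0 rose and 2 (Areg and Ereg) fell, where 1.92% of all genes rose and 1.55% fell. With group weights 2 members rose and 4 fell in organoids, where 19.7% and 16.6% of all genes did. The ligand gene Btc (betacellulin) had 32.2, 23.4, 16.8 and 37.7 CPM in tumors, against 7.78, 5.53, 0 and 6.71 CPM in floxed tissue, and 34.7, 45.4 and 39.6 CPM in DKO organoids, against 70.8, 63.6 and 60.2 CPM in WT organoids. The receptor gene Erbb3 fell in tissue, with a change of -2.19 ± 0.24, and stood at 0.20 ± 0.26 in organoids. Their interactions were 2.80 ± 0.39 (adjusted p = 0.000121) and -2.38 ± 0.35 (adjusted p = 0.00017) in edgeR's quasi-likelihood test with Benjamini-Hochberg adjustment. Of 22 TGF-beta and BMP genes 6 rose and 8 fell in tissue, also near the tissue shares of all genes. In organoids 1, Tgfbi, rose (2 rose and 2 fell with group weights), against the organoid shares given above. Bmp7, a secreted morphogen, rose by 3.78 ± 0.35 in tissue and stood at -0.09 ± 0.33 in organoids (interaction adjusted p = 5.65e-05).

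Of 15 metalloproteinase and inhibitor genes 14 rose and 1 fell in tissue, where 31.5% and 26.4% of all genes did. In organoids, where 6 of the 15 passed the filter, 3 rose (5 rose and 2 fell with group weights). Of all genes 1.92% rose in organoids, and with group weights 19.7% rose and 16.6% fell. All 15 neutrophil genes and 17 of 24 fibroblast and matrix genes rose in tissue as well. Fibroblast and matrix genes summed to 4098 to 22770 CPM in tumors, against 1299 to 2202 CPM in floxed tissue, and their part in the metalloproteinase result was not tested. Mmp14, a membrane-bound collagenase, had 393, 552, 511 and 329 CPM in tumors, against 33.6, 42.6, 13.6 and 38.5 CPM in floxed tissue, and 79.7, 75.4 and 76.4 CPM in DKO organoids, against 54.4, 51.5 and 59.4 CPM in WT organoids (interaction 3.17 ± 0.31, adjusted p = 8.68e-06). Of 15 enteric neuron and glia genes 1 rose and 10 fell in tissue, against 31.5% and 26.4% of all genes. In organoids 1, Ret, rose (5 rose and 0 fell with group weights), against the same organoid shares. Ret, the receptor of GDNF family ligands, fell in tumors and rose in DKO organoids, with changes of -1.20 ± 0.25 and 1.27 ± 0.28 and an interaction of -2.46 ± 0.37 (adjusted p = 0.000214). Of 15 tested tuft cell markers 4 rose and 7 fell in tissue, against 31.5% and 26.4% of all genes, and 0 changed in organoids. In tumors Avil (advillin) rose by 2.46 ± 0.20, and Trpm5, the taste-type ion channel, fell, with a change of -1.87.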
